A study of Mus musculus and Mus spretus with 72 samples.

Results

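The genes described here are 10 members of the mammalian circadian clock, Clock, Npas2, Arntl, Per1, Per2, Per3, Cry1, Bhlhe40, Nr1d2 and Dbp, taken by symbol from the array's probe annotation. Each was represented by 1 probe, so the members are 10 of the 22089 probes measured, and 10 of the 14386 genes named. The study used a reference design on 72 arrays with 2 channels: RNA of 1 male mouse of about 12 weeks was set against a pool from 9 C57BL6 mice, a laboratory strain, of the same tissue. The tissues were brain, testis, and an organ sample that the labels call kidneyliver, in which liver and kidney were not separated. In each tissue there were 3 Mus spretus males (spretus), 6 Mus musculus males with no sub-species named (ssp), 3 M. m. castaneus (cas), 6 M. m. musculus (mus) and 6 M. m. domesticus (dom). The last 4 are called the 4 musculus groups, 21 arrays per tissue. The labels name no mutation, treatment or time of day of dissection, and give no detail of rearing.

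In mammals the clock is a feedback loop of transcription. ARNTL (BMAL1) pairs with CLOCK or its paralogue NPAS2, binds E-boxes and switches on Per and Cry genes, whose products then hold the pair back. BHLHE40 (DEC1) also represses at E-boxes, NR1D2 (REV-ERB-beta) represses Arntl through ROR elements, and DBP drives genes with D-boxes, so in tissues such as liver the transcripts of Dbp, Per and Nr1d genes rise and fall over the day.

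Start-site windows of the members are shown because they hold, or lack, these elements. RefSeq windows on GRCm38.p6, from 250 bases before to 50 bases after a gene's start, were given for 8 of the 10 members, and those of Per2 and Bhlhe40 were not listed. Printed are the members that passed a test below (Nr1d2, Dbp and Npas2) and those with a match to a core clock motif. Capitals mark an E-box (CACGTG), an E-prime box (CACGTT), a D-box (TTATGNAA or TTACGTAA) or a ROR element (AANTN followed by GGTCA). N is any base, both strands were searched, and GGTCA alone was not counted.
Nr1d2, chr14:18239057-18239356, minus strand: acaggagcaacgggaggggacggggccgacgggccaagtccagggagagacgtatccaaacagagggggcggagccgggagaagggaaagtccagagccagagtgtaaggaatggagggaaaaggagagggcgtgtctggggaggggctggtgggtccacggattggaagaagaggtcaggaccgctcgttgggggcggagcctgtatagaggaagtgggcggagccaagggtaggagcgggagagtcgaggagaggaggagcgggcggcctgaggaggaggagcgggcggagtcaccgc
Dbp, chr7:45704997-45705296, plus strand: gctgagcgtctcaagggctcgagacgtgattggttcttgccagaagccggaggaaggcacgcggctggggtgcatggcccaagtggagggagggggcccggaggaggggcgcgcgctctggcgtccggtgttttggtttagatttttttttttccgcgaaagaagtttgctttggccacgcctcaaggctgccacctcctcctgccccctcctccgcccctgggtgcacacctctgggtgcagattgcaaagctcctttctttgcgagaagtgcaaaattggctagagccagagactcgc
Npas2, chr1:39194022-39194321, plus strand: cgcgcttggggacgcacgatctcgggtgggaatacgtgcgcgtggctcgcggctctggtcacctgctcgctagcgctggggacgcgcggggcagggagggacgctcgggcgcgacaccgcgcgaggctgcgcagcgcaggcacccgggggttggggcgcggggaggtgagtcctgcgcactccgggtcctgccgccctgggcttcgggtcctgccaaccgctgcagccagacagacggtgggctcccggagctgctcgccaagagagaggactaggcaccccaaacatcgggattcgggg
Cry1, chr10:85185005-85185304, minus strand: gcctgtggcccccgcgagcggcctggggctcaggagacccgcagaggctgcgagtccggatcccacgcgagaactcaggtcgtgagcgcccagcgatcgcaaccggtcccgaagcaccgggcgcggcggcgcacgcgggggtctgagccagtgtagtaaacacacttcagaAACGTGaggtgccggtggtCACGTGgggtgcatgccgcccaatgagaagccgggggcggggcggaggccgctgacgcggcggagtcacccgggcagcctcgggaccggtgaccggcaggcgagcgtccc
Per1, start 1, chr11:69098699-69098998, plus strand: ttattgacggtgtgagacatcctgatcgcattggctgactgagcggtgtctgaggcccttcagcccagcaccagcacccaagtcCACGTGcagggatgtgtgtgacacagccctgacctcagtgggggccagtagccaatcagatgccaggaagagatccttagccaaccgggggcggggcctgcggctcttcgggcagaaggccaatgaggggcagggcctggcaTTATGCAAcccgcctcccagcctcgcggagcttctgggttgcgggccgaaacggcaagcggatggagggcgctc
Per3, chr4:151044616-151044915, minus strand: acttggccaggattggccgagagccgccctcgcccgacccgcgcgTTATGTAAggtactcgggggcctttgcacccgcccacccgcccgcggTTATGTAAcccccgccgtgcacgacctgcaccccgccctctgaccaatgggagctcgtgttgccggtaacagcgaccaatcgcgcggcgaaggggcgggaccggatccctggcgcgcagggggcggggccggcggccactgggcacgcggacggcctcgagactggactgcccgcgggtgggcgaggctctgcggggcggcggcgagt
Arntl, start 2, chr7:113207261-113207560, plus strand: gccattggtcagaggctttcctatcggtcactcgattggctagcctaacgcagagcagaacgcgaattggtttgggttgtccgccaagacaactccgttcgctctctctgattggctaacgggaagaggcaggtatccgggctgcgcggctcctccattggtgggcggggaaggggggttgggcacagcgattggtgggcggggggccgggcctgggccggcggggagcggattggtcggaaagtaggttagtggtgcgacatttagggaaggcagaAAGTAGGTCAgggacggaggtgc

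Cry1 held an E-box 60 bases and an E-prime box 79 bases before its start. Per1 held an E-box 166 bases and a D-box 24 bases before its start, and Per3 had 2 D-boxes, 205 and 158 bases before. Arntl had a ROR element 27 bases after its second start. None of these full motifs was in the windows of Nr1d2, Dbp or Npas2, nor in those of the 3 Clock starts. That says nothing of the rest of each gene. Among all 32851 windows, 7.15% held an E-box, 4.68% an E-prime box, 3.50% a D-box and 0.606% a ROR element.

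Values are the authors' log ratios, taken as log2 of sample over pool; base and direction are not stated, and the direction is likely because channel 2 held the sample on every array. Were it inverted, every sign below would turn. Since each tissue had its own pool, levels cannot be set against each other across tissues or genes, and the tissue labels could not be checked by marker levels. Arrays carried 42825 to 44832 spots with a value of 46128, and arrays of a tissue correlated over all probes with a median r of 0.0951 in brain, 0.330 in liver/kidney, with 0.165 in testis. Their spots without a value fell into 3 patterns, which put 46, 24 and 2 arrays into 3 sets that the labels do not name. Set 1 held most dom, mus and ssp arrays, set 2 most spretus and cas arrays, and set 3 only the brain of cas animal 3 and the liver/kidney of spretus animal 2. In liver/kidney all 18 dom, mus and ssp arrays were in set 1 and no spretus array was, and all 3 cas arrays were in set 2. There the set cannot be told apart from a difference of spretus or cas from dom, mus and ssp.

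Not all members were measured equally well. Over the arrays, the 2 spots of a probe correlated at 0.966 for Bhlhe40, 0.940 for Dbp, 0.914 for Nr1d2 and 0.830 for Per1. The correlation was 0.565 for Npas2, 0.480 for Clock, 0.420 for Per2, 0.316 for Arntl, 0.197 for Per3 and 0.151 for Cry1, against a median of 0.443 over 22044 probes. Per2, Arntl, Per3 and Cry1 were thus below the median probe, and their values carry more spot error. Per1 had a value on 29 arrays, all 26 of sets 2 and 3 but only 3 of the 46 of set 1, and was left out of the tests over all groups.

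**Figure D1:**
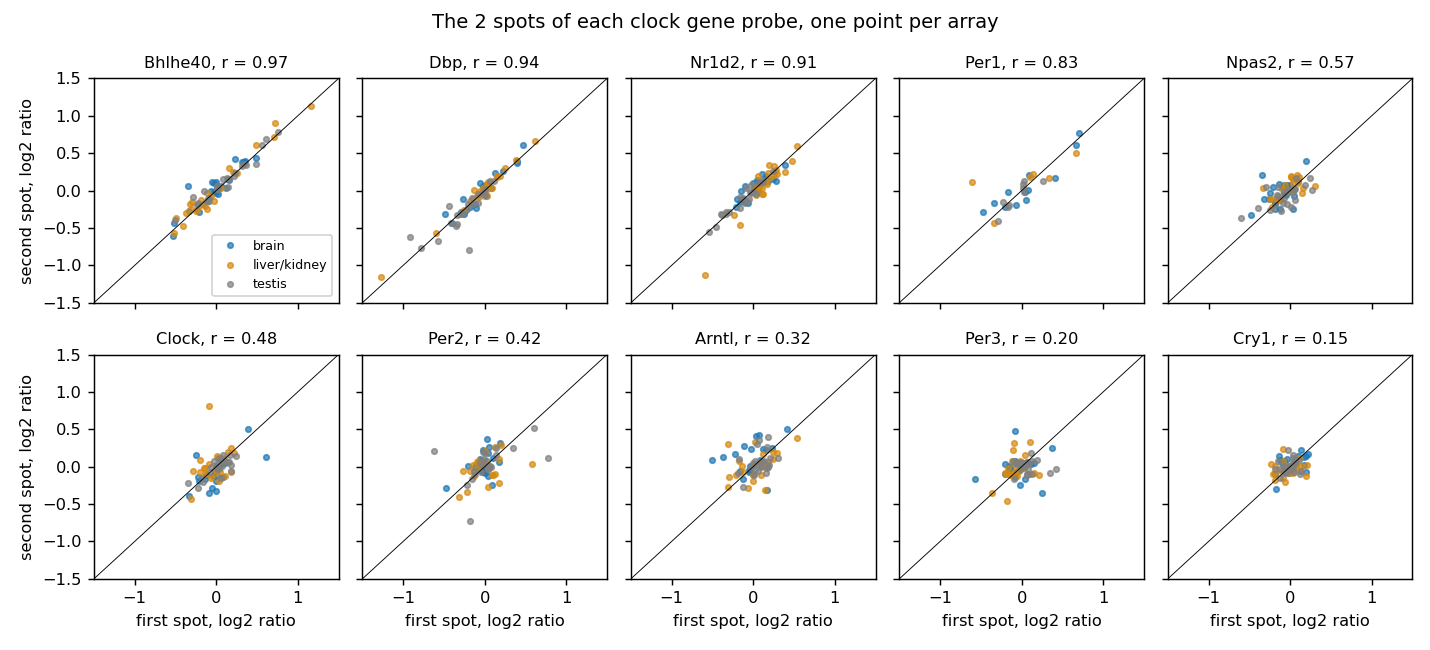
The second spot's log2 ratio (vertical axis) against the first spot's (horizontal axis) for each member, 1 point per array with both spots, coloured by tissue. The points follow the diagonal for Bhlhe40, Dbp and Nr1d2 and form a cloud for Cry1 and Per3, whose duplicate r was 0.151 and 0.197.

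The widest contrast set spretus against the mean of the 4 musculus groups. Levels are ratios of array signal, and whether spretus differs in sequence at a probe was not tested. Bhlhe40 was higher in spretus in brain and liver/kidney, Nr1d2 and Dbp were lower in spretus liver/kidney, and Npas2 was lower in spretus testis. At an adjusted p under 0.05 (limma, Benjamini-Hochberg over all probes of the tissue) 1 of 9 tested members passed in brain, 3 of 9 in liver/kidney, with 1 of 9 in testis. Of all probes, 3.95%, 7.49% and 9.42% passed in the 3 tissues in that order, so the testis count is near the background. The median difference of the 9 members was 0.01 in brain, 0.04 in liver/kidney, with 0.03 in testis, against 0.02, 0.00 and 0.01 over all probes.

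**Figure D2:**
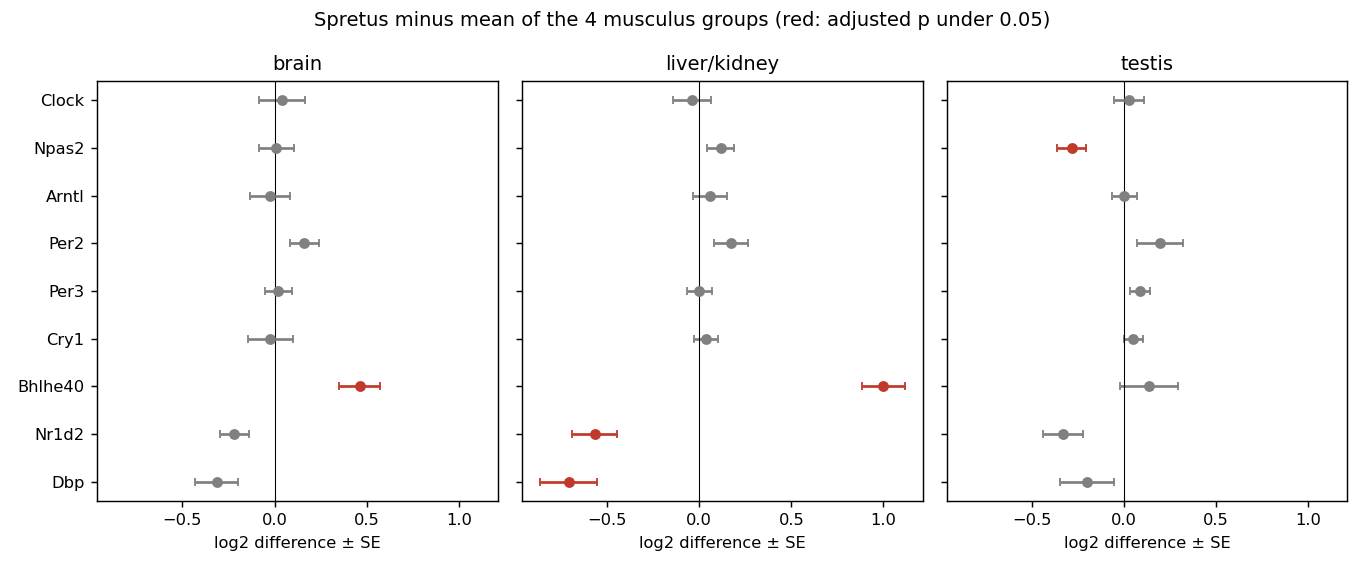
Log2 difference of spretus from the mean of the 4 musculus groups for the 9 tested members in each tissue, with its standard error as bars; red points passed at an adjusted p under 0.05. Bhlhe40 in liver/kidney lies farthest right at 1.00, and Dbp (-0.71) and Nr1d2 (-0.57) in liver/kidney farthest left.

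Among the repressors, Bhlhe40 gave the widest separation. In liver/kidney its log2 ratio was 0.71, 1.15 and 0.81 in spretus animals 1, 2 and 3, against -0.54 at the lowest, -0.18 at the median and 0.55 at the highest of the 21 musculus arrays. All 3 spretus arrays lay above every musculus array. The difference was 1.00 ± 0.12 (SE), a 2.00-fold higher level in spretus, with an adjusted p of 1.41e-05, and the probe ranked 16 by p among the 20652 tested.

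Brain showed the same separation on a smaller scale. Bhlhe40 was at 0.46, 0.36 and 0.38 in spretus, and at -0.57, -0.01 and 0.35 as the lowest, median and highest of the musculus arrays. The lowest spretus array stood just above the highest musculus array, which was a dom array. The difference was 0.46 ± 0.11 (SE; adjusted p = 0.0198), 1.38-fold. Non-overlapping arrays, in either direction, were seen for 2.25% of all probes in brain, 1.54% in liver/kidney, with 3.64% in testis. Bhlhe40 was the only tested member with them in brain or liver/kidney, and in testis there was none.

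In testis Bhlhe40 stood at 0.23, 0.21 and 0.35 in spretus, against -0.45, 0.04 and 0.77 as the lowest, median and highest of the musculus arrays. The spretus values sat inside the musculus range, and the difference of 0.14 ± 0.16 (SE; adjusted p = 0.671) did not pass. The brain call was lost when any 1 of the 3 spretus arrays was left out (adjusted p 0.0672 to 0.121). The liver/kidney call held in all 24 such runs (0.87 to 1.09).

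Within set 2 alone, Bhlhe40 in brain differed by 0.51 ± 0.13 (SE) between 3 spretus arrays and 7 others, with an adjusted p of 0.0954. In liver/kidney, where set 2 allows only 2 spretus against 3 cas arrays, it differed by 0.73 ± 0.14 (adjusted p = 0.347), and no probe passed in that comparison. The differences within set 2 had the sign of those over all arrays, and neither call was kept.

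Nr1d2, the REV-ERB repressor, was lower in spretus liver/kidney. In liver/kidney it was at -0.31, -0.86 and 0.04 in spretus animals 1, 2 and 3, against -0.28, 0.18 and 0.57 as the lowest, median and highest of the musculus arrays. Animals 1 and 2 lay below every musculus array and animal 3 lay inside their range. The 2 spots of animal 2 read -0.59 and -1.14. The difference was -0.57 ± 0.12 (SE; adjusted p = 0.00571), or 0.675 of the musculus level.

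In testis Nr1d2 was at -0.36, -0.55 and -0.29 in spretus, against -0.47, -0.03 and 0.25 as the lowest, median and highest musculus arrays. The groups overlapped, and the difference of -0.33 ± 0.11 (SE) missed the threshold with an adjusted p of 0.0592. In brain it was at -0.21, -0.13 and -0.12 in spretus, against -0.16, 0.08 and 0.36 in the musculus arrays, a difference of -0.22 ± 0.08 (SE; adjusted p = 0.114). The estimate was below 0 in each tissue.

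Dbp, the D-box activator, was also lower in spretus liver/kidney. In liver/kidney it was at -0.08, -1.21 and -0.58 in spretus animals 1, 2 and 3, against -0.26, 0.01 and 0.64 as the lowest, median and highest of the musculus arrays. Animals 2 and 3 lay below all 21 musculus arrays, and animal 1 lay among them. The difference was -0.71 ± 0.15 (SE; adjusted p = 0.00629), or 0.612 of the musculus level.

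Spretus animal 2, the array of set 3, had the most extreme value of all 3 called genes in liver/kidney. Without it Nr1d2 differed by -0.32 (adjusted p = 0.112) and Dbp by -0.42 (adjusted p = 0.120), so both calls rest on that array, while Bhlhe40 stood at 0.87 and was still called. Within set 2, against cas alone, Nr1d2 differed by -0.45 ± 0.18 and Dbp by -0.56 ± 0.26 (SE; neither passed). With array weights Dbp differed by -0.36 (adjusted p = 0.248).

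Brain Dbp was at -0.17, -0.28 and -0.42 in spretus, against -0.40, 0.02 and 0.53 as the lowest, median and highest musculus arrays (difference -0.31 ± 0.12 SE, adjusted p = 0.131). Testis Dbp was at -0.49, -0.42 and -0.39 in spretus, against -0.78, -0.19 and 0.12 in the musculus arrays (difference -0.20 ± 0.14 SE, adjusted p = 0.452). Both were below the musculus median on every spretus array and inside the musculus range on most, and neither passed. With array weights brain Dbp passed at -0.38 (adjusted p = 0.00397), and so did brain Nr1d2 at -0.24 (adjusted p = 0.0122). That fit called 3187 of 20621 probes, against 814 with equal weights. The spread within groups was wide for Dbp, with a residual SD of 0.265 in liver/kidney, above that of 85.8% of probes, and 0.248 in testis.

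**Figure D3:**
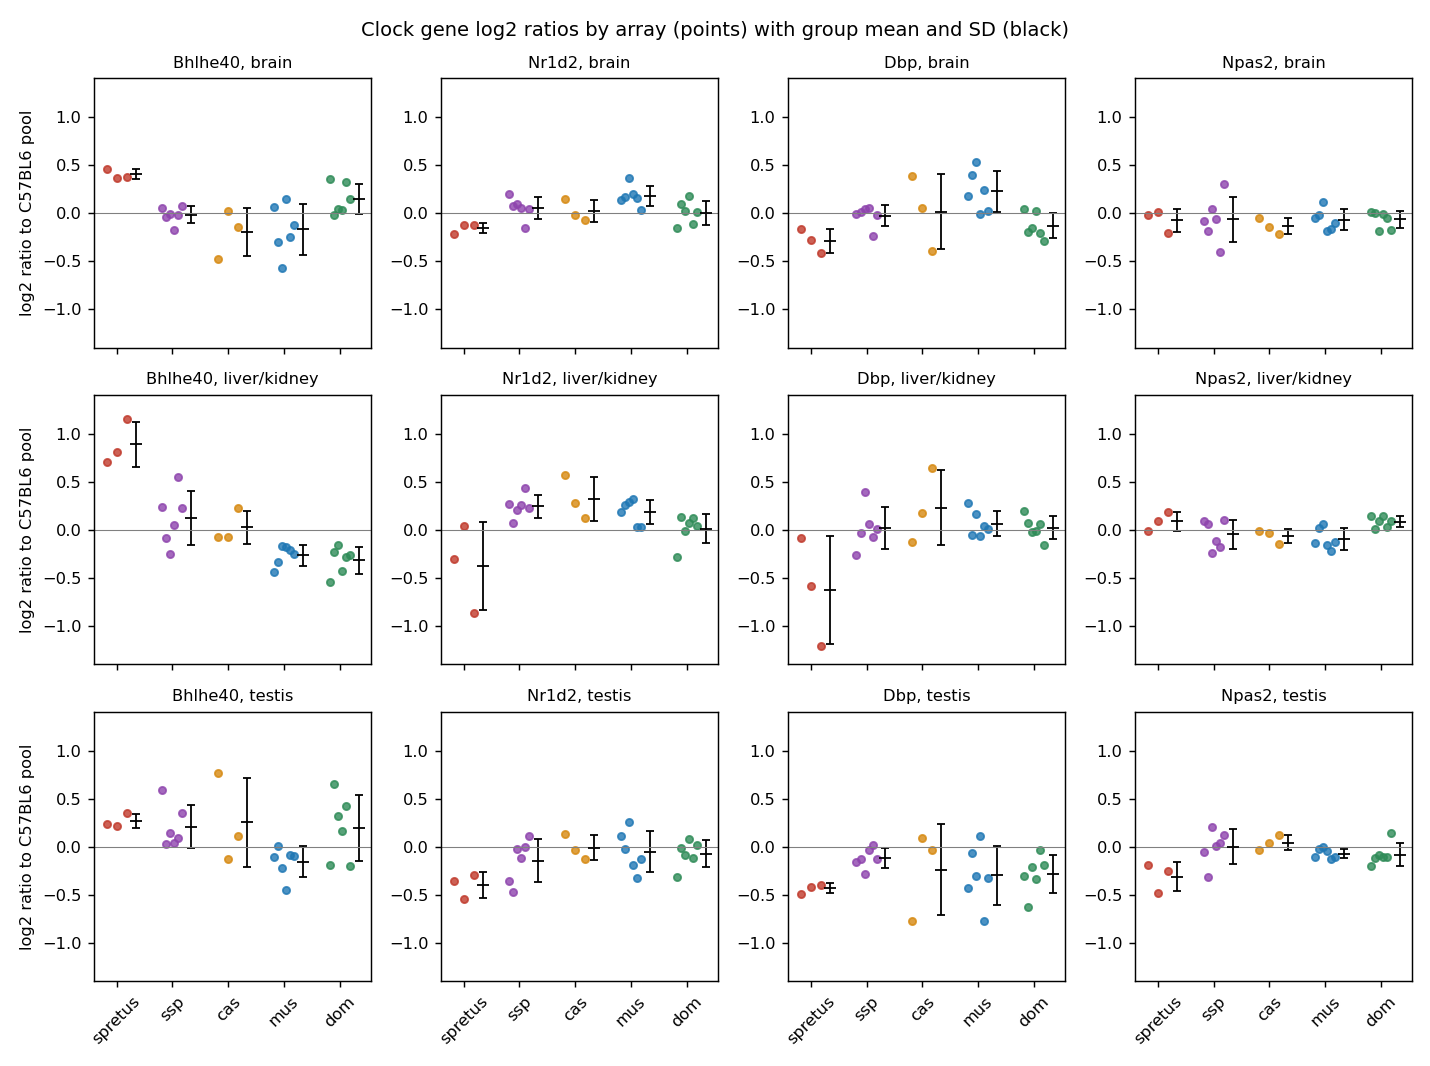
Log2 ratio against the pool (vertical axis) of Bhlhe40, Nr1d2, Dbp and Npas2 in every array, by tissue and group; each point is 1 array, with the group mean and SD in black beside it. Bhlhe40 in spretus liver/kidney stands at 0.71 to 1.15, above all 21 musculus arrays, while Dbp in the same 3 arrays runs from -1.21 to -0.08.

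Of the activators, Npas2 passed the test in testis. It was at -0.19, -0.48 and -0.26 in spretus, against -0.32, -0.05 and 0.20 as the lowest, median and highest musculus arrays. Animal 2 alone lay below the musculus range. The difference was -0.28 ± 0.08 (SE; adjusted p = 0.0254), or 0.821 of the musculus level, and the call was lost without animal 2 (-0.20, adjusted p = 0.283).

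The Npas2 call also failed from either spot alone (-0.33 and -0.24, adjusted p 0.0636 and 0.0619), under quantile normalization (-0.20, adjusted p = 0.105) and within set 2 (-0.27 ± 0.09 SE, adjusted p = 0.157). In liver/kidney Npas2 ran from -0.01 to 0.18 in spretus and from -0.24 to 0.14 in the musculus arrays, and in brain from -0.21 to 0.01 in spretus and from -0.40 to 0.30 in the musculus arrays. Clock, the partner that Npas2 can replace, differed by 0.04 ± 0.13 in brain, -0.04 ± 0.10 in liver/kidney, with 0.03 ± 0.08 in testis (SE). Arntl, which pairs with either, differed by -0.02 ± 0.11, 0.06 ± 0.09 and 0.00 ± 0.07 (SE) in the same tissues.

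Of the Per and Cry repressors none passed over all arrays with equal weights. Per2 in brain was at 0.11 to 0.25 in spretus, against -0.38 to 0.20 in the musculus arrays, a difference of 0.16 ± 0.08 (SE; adjusted p = 0.247). Its difference was 0.17 ± 0.09 (adjusted p = 0.284) in liver/kidney and 0.19 ± 0.12 (adjusted p = 0.382) in testis. The testis value was 0.34 with array weights, which passed (adjusted p = 0.0280), and 0.08 without spretus animal 3. The fit with array weights called 2330 of 20754 probes, against 1956 with equal weights. The ranges overlapped in all 3 tissues, and so did those of Per3 and Cry1, whose differences lay between -0.02 and 0.09.

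Per1 was tested only within set 2, while the values that follow take in every array that had one, whatever its set. In brain it was at -0.13, -0.09 and 0.04 in spretus and ran from -0.38 to 0.74 over the 9 musculus arrays with a value. In liver/kidney it was at -0.38, -0.25 and 0.25 in spretus, against 0.14, 0.18 and 0.59 in cas. In testis it was at 0.20, -0.18 and 0.08 in spretus and ran from -0.35 to 0.10 over 8 musculus arrays. The ranges overlapped in each tissue, and within set 2 the differences were -0.16 ± 0.20, -0.37 ± 0.23 and 0.10 ± 0.11 (SE; adjusted p 0.687 to 0.734).

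The F test over the 5 groups asked whether a member varied among groups at all. Bhlhe40 passed in brain (adjusted p = 0.0323), and Bhlhe40, Nr1d2 (adjusted p = 0.0241) and Dbp (adjusted p = 0.0470) passed in liver/kidney. In testis 0 of 9 passed in limma, and 1 had an unadjusted p under 0.05, beside 17.6% of all probes. Over all probes 3.28%, 6.51% and 4.29% passed in brain, liver/kidney and testis.

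Whether the spretus difference itself depended on tissue was tested in a single model over the 72 arrays that treated the animal as a random effect. Bhlhe40 was more strongly raised in liver/kidney than in testis, by 0.86 ± 0.19 (SE; adjusted p = 0.00152). Npas2 differed between the same tissues by 0.40 ± 0.12 (SE; adjusted p = 0.0220), a call lost under quantile normalization (0.30, adjusted p = 0.138). These 2 of 9 members stand beside 5.98% of all probes. The model had no term for the array set. In liver/kidney the set cannot be told apart from a difference of spretus from dom, mus and ssp. Between brain and liver/kidney, and between brain and testis, 0 members passed in limma (1.90% and 2.96% of all probes), and Bhlhe40 differed by -0.54 ± 0.19 (adjusted p = 0.142) and 0.32 (adjusted p = 0.530). For Nr1d2 and Dbp no tissue difference passed, so their lower levels were not shown to be particular to liver/kidney. For mus against dom, 0 of 9 members passed in limma for brain minus liver/kidney, brain minus testis and liver/kidney minus testis, while 2, 0 and 2 had an unadjusted p under 0.05. Of all probes 0.0389%, 0% and 0.170% passed. The share of all probes with such an unadjusted p is not given, so those counts are not read as a result. Under quantile normalization Per3 passed for liver/kidney minus testis (-0.31, adjusted p = 0.0405).

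Within the house mice no member passed the test in any of the 3 contrasts that follow. In mus against dom, 0 of 9 members passed in limma in each tissue, while 3, 2 and 1 had an unadjusted p under 0.05 in brain, liver/kidney and testis. Of all probes 0.223%, 0.591% and 0% passed, and 9.33%, 6.32% and 6.59% had an unadjusted p under 0.05.

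In brain, Dbp ran from -0.01 to 0.53 with a median of 0.21 in mus, and from -0.29 to 0.04 with a median of -0.17 in dom. The groups barely overlapped, and the difference was 0.36 ± 0.11 (SE; adjusted p = 0.160). Of the brain mus arrays, 1 has a channel label that says domesticus. With each array left out in turn the Dbp difference was 0.29 to 0.40, and no run called it. Over all arrays Dbp passed under quantile normalization (0.42, adjusted p = 0.0412) and with array weights (0.38, adjusted p = 0.0159). Those fits called 322 and 383 of 20621 probes, against 46 with neither. Brain Bhlhe40 differed in the other direction, by -0.32 ± 0.10 (adjusted p = 0.206), and brain Nr1d2 by 0.17 ± 0.07 (adjusted p = 0.422).

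In liver/kidney Per3 ran from -0.36 to 0.00 with a median of -0.13 in mus, and from 0.00 to 0.21 with a median of 0.04 in dom. The groups met near 0, and the difference was -0.24 ± 0.06 (SE; adjusted p = 0.113). It passed under quantile normalization (adjusted p = 0.0456), with array weights (adjusted p = 0.0273) and from the second spot (adjusted p = 0.0413). Those fits called 207 and 319 of 20652 probes and 92 of 20526, against 122 with none of these settings. The 2 spots of the Per3 probe correlated at 0.197. Npas2 there differed by -0.18 ± 0.07 (adjusted p = 0.526), and testis Bhlhe40 by -0.35 ± 0.15 (adjusted p = 0.746).

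In cas against dom and mus, 0 of 9 members passed in limma in each tissue, and 1, 1 and 0 had an unadjusted p under 0.05 in brain, liver/kidney and testis. Of all probes 0.0097%, 1.11% and 0.0193% passed, and 12.0%, 14.8% and 6.25% had an unadjusted p under 0.05. Brain Per3 was at 0.08, 0.10 and 0.31 in cas and ran from -0.11 to 0.20 in mus and from -0.09 to 0.00 in dom, a difference of 0.21 ± 0.08 (adjusted p = 0.292). Liver/kidney Bhlhe40 averaged 0.03 in cas, -0.27 in mus and -0.32 in dom, a difference of 0.32 ± 0.12 (adjusted p = 0.215), in which cas and array set 2 cannot be told apart.

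In ssp against dom, mus and cas, 0 of 9 members passed in limma in each tissue, and 1, 2 and 1 had an unadjusted p under 0.05. Of all probes 0.0970%, 0.0436% and 0% passed, and 15.7%, 10.6% and 4.86% had an unadjusted p under 0.05. Liver/kidney Bhlhe40 ran from -0.25 to 0.55 with a median of 0.14 in ssp, against -0.44 to -0.17 in mus and -0.54 to -0.16 in dom. Of the 6 ssp arrays, 5 were above all mus and dom arrays, and the difference was 0.31 ± 0.09 (adjusted p = 0.220). Within set 1, which holds all 18 arrays of these 3 groups, ssp was 0.41 ± 0.09 higher than dom and mus (adjusted p = 0.0264), in a fit that called 343 of 21499 probes.

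The order of Bhlhe40 in liver/kidney was therefore spretus (0.89 ± 0.23), ssp (0.12 ± 0.28), cas (0.03 ± 0.17), mus (-0.27 ± 0.11) and dom (-0.32 ± 0.14; means ± SD, n = 3, 6, 3, 6 and 6). Ssp and cas, and mus and dom, are neighbours that lie within each other's spread. Arntl in ssp differed by 0.20 in liver/kidney (adjusted p = 0.335) and by 0.13 in testis (adjusted p = 0.973), neither of which passed. Brain Per3 in ssp differed by -0.16 ± 0.06 (SE; adjusted p = 0.195).

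The mean of the 4 musculus groups was also set against the C57BL6 pool, which is 1 RNA sample without spread of its own. In brain 0 of 9 members passed in limma, and 3 had an unadjusted p under 0.05, beside 25.5% of all probes. In liver/kidney Nr1d2 was 0.19 ± 0.04 above the pool (SE; adjusted p = 0.00212), and in testis Dbp was 0.23 below it (log2 difference -0.23 ± 0.05 SE, adjusted p = 0.00436). These are 1 of 9 members in each tissue, beside 8.95%, 31.4% and 13.1% of all probes in brain, liver/kidney and testis. Both calls held with each array left out in turn.

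Covariation over arrays asked whether members rose and fell together between animals of a group. Group means were removed, and 36 pairs of 9 members were tested per tissue over 24 arrays by permutation within groups (two-sided, 100000 resamples), with p adjusted over 108 pairs. No pair passed in any tissue, and 4, 4 and 7 had an unadjusted p under 0.05 in brain, liver/kidney and testis. The median absolute r of the pairs was 0.163, 0.149 and 0.197. Against all probes with a value on every array, a member's median absolute r was 0.165 to 0.232 in brain. It was 0.144 to 0.249 in liver/kidney and 0.170 to 0.300 in testis, with brain Cry1 left out. The pair medians lay within or below these ranges.

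Brain Npas2 and Dbp had the lowest p, with r = 0.546 (permutation p = 0.00061, adjusted 0.0659) and Spearman coefficient = 0.595 (permutation p = 0.003). Without the 2 arrays farthest from the median of the gene named first, here Npas2, r was 0.680 (adjusted p = 0.0302). Such runs also drop any group left with 1 array. The pair had r = 0.662 within set 1 and 0.540 within set 2. In liver/kidney the same pair had r = -0.500, the opposite sign, and in testis 0.177. The sign seen in brain was thus not kept in liver/kidney.

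Bhlhe40, Nr1d2 and Dbp, the 3 best measured members, were compared in more detail. In brain Bhlhe40 ran against Nr1d2 (r = -0.558, permutation p = 0.0115, Spearman coefficient = -0.531, permutation p = 0.0166), and Nr1d2 ran with Dbp (r = 0.509, permutation p = 0.0201, Spearman coefficient = 0.359, permutation p = 0.122). Both had an adjusted p of 0.270, and without the 2 farthest arrays r was -0.307 and 0.455. With group means left in, they were -0.718 and 0.733 (adjusted p = 0.00432 for each), and these values include the group differences.

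Bhlhe40 and Dbp had an r below 0 in each tissue, -0.508 in brain, -0.429 in liver/kidney, with -0.555 in testis. Without the 2 arrays farthest from the Bhlhe40 median the values were -0.114, -0.253 and -0.212, so each relation was weaker without them. In liver/kidney those 2 were spretus arrays, and the spretus array left was dropped as well. The -0.253 is thus a value without spretus. In liver/kidney Nr1d2 and Dbp, both lower in spretus, had r = 0.0905 within groups.

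In testis Npas2 and Nr1d2 had r = 0.606 (permutation p = 0.00325, adjusted 0.164) and Spearman coefficient = 0.522 (permutation p = 0.0158). The r was 0.569 after the 2 farthest arrays were left out. By r with Npas2, Nr1d2 ranked 1089 from the highest among 19785 other probes. Per2 and Nr1d2 had r = -0.517 (permutation p = 0.0045, adjusted 0.164) and Spearman coefficient = -0.477 (permutation p = 0.0172), with -0.455 after the 2 farthest. That pair was at -0.625 within set 1 and 0.340 within set 2, so its sign was not the same in the 2 sets. Liver/kidney Arntl and Per3 had r = 0.450 (permutation p = 0.0392, adjusted 0.318) and Spearman coefficient = 0.370 (permutation p = 0.107), with 0.369 after the 2 farthest and 0.737 within set 1 (adjusted p = 0.0313).

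**Figure D4:**
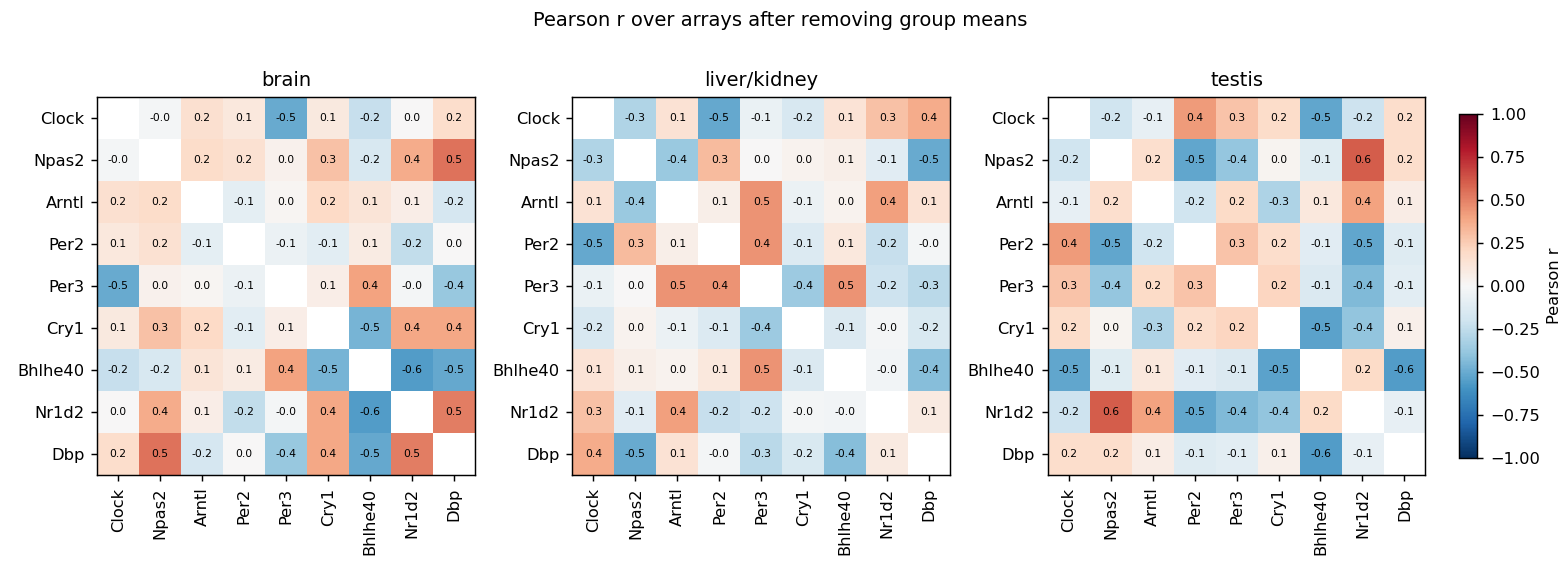
Pearson r between members over the 24 arrays of each tissue after group means were removed, as a grid of member against member; red is above 0 and blue below. Bhlhe40 with Dbp is blue in each panel (-0.508, -0.429 and -0.555), and Npas2 with Dbp changes colour between brain (0.546) and liver/kidney (-0.500).

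Each animal gave all 3 tissues, so a member could be followed across the organs of an animal. Of 27 tests, 9 members in 3 pairs of tissues, 1 passed: Nr1d2 in liver/kidney and testis had r = 0.568 over 24 animals (permutation p = 0.00101, adjusted 0.0273). The Spearman coefficient was 0.533 (permutation p = 0.0105), with an adjusted p of 0.282. Animals with more Nr1d2 than their group in liver/kidney tended to have more in testis. Without the 2 animals farthest from the liver/kidney median r was 0.544 (adjusted p = 0.239), and without spretus 0.597 (adjusted p = 0.130). Under quantile normalization r was 0.412. Brain gave lower values, with r = 0.244 against liver/kidney and 0.264 against testis.

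**Figure D5:**
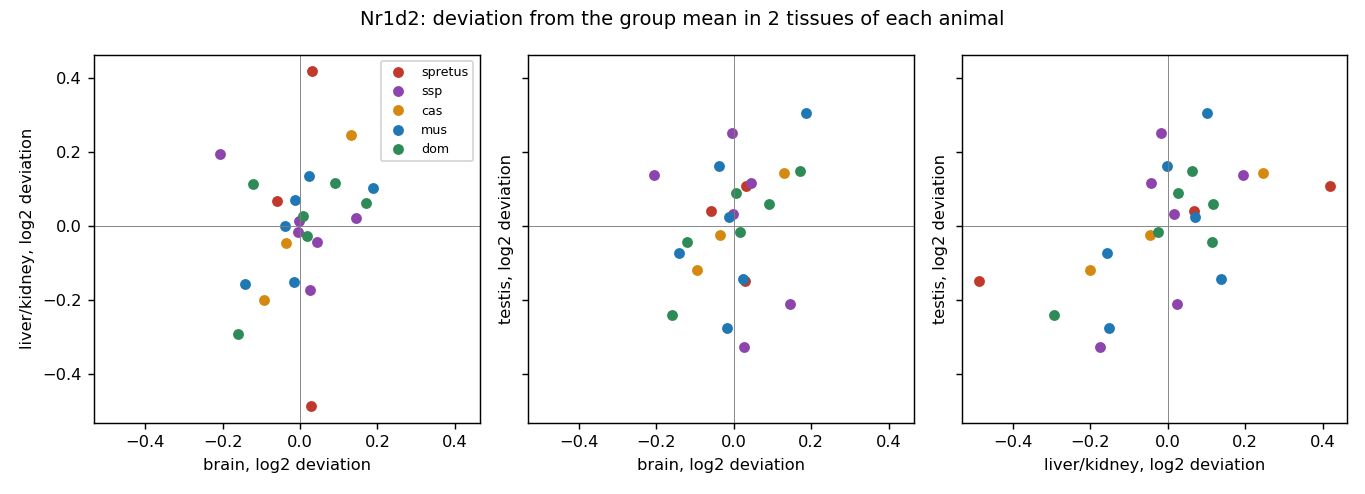
Nr1d2 log2 ratio of each animal minus its group mean in 1 tissue against another, 24 animals, coloured by group: liver/kidney against brain, testis against brain, and testis against liver/kidney. The points rise together in the last panel (r = 0.568), less so in the first (0.244) and the second (0.264).

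Genes that are no members but had the most similar pattern are given as a description, over 24 arrays with group means removed and 19516 to 19786 probes per tissue. For Dbp these were Lysmd1 (r = 0.888) in brain, Ctnnal1 (0.915) and Dhrs3 (0.881) in liver/kidney, and 1700083H02Rik (0.902) in testis. For Nr1d2 they were Dram1 (0.836) in brain, Pigo (0.894) in liver/kidney, and Epha2 (0.906) and Ndn (0.902) in testis. The top gene was Wnt6 (0.824) in brain, C330002G04Rik (0.757) in liver/kidney and Ppp1r16a (0.875) in testis for Npas2. For Per2 it was Dixdc1 (0.776) in brain and Pcdha5 (0.852) in liver/kidney. None of these 4 members had the same top gene in 2 tissues, and each value is the top of a list of all those probes.

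Other clock genes were described from a wider list. Of 23 such genes, 13 were measured, by 18 probes. In spretus liver/kidney 2 probes were higher and 1 lower, beside 7.49% of all probes, with a median difference of 0.07 against 0.00 over all probes. Rora, an activator that competes with the REV-ERB repressors for ROR elements, was 1.08 ± 0.20 higher in liver/kidney (SE; adjusted p = 0.00190) and 0.41 ± 0.10 higher in testis (adjusted p = 0.0120), where it was the 1 probe of 18 that passed, beside 9.42% of all probes. In brain it differed by 0.49 ± 0.16 (adjusted p = 0.0792). Gsk3b, a kinase, was 0.35 ± 0.08 higher in liver/kidney by 1 of its 3 probes (adjusted p = 0.00697). The others differed by 0.22 (adjusted p = 0.219) and -0.13 (adjusted p = 0.294). Timeless was lower there (-0.46 ± 0.11 SE, adjusted p = 0.0119). Nr1d1, the paralogue of Nr1d2, differed by 0.14, 0.10 and 0.04 in brain, liver/kidney and testis and passed in none of them.

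Of 23 genes known as rhythmic outputs, 18 were measured by 19 probes. In spretus against musculus 0 of them passed in limma in brain, 1 in liver/kidney, with 3 in testis, beside 3.95%, 7.49% and 9.42% of all probes. In liver/kidney the share was no higher than that background, and the probe was that of Sgk1, a kinase (-0.46 ± 0.08 SE, adjusted p = 0.00123). In testis Tfrc by 1 of its 2 probes (0.36 ± 0.09, adjusted p = 0.0116; the other 0.21 ± 0.07, adjusted p = 0.0730) and Cirbp (0.46 ± 0.09, adjusted p = 0.00182) were higher and Tspan4 (-0.37 ± 0.08, adjusted p = 0.00488) lower. The transferrin receptor is Tfrc, and Cirbp is a cold-inducible RNA-binding protein. Rgs16, a regulator of G protein signalling, differed within house mice in liver/kidney, by -0.95 ± 0.16 in mus against dom (adjusted p = 0.00310) and by 0.80 ± 0.18 in cas against dom and mus (adjusted p = 0.0325). The 2 contrasts share dom and mus arrays, and in the second group and array set cannot be told apart. Of 10 immediate early genes, by 11 probes, Fos passed in spretus liver/kidney (-0.39 ± 0.10, adjusted p = 0.0179), and 1 of 11 is near the 7.49% of all probes.

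Markers of cell types are given beside these results. In liver/kidney 5 of 12 hepatocyte marker probes were lower in spretus, those of Alb, Ttr, Trf, Fgg and Fgb, and none was higher. Of all probes there 7.49% passed in either direction. The mean of the 12 was -0.16, -0.35 and 0.01 in spretus animals 1, 2 and 3, against 0.11, 0.22 and 0.39 as the lowest, median and highest of the 21 musculus arrays. All 3 spretus arrays were below the musculus range, for which no background over other lists was computed. Animal 2, the lowest for Nr1d2 and Dbp, was lowest here too. Animal 1 was below animal 3, as for Nr1d2, while for Dbp animal 1 was above animal 3. The 11 kidney marker probes averaged from -0.05 to 0.09 in spretus and from -0.37 to 0.17 in the musculus arrays. Of the 11, only 1 passed, that of Umod, higher in spretus by 0.72 ± 0.12 (SE), beside 7.49% of all probes. Umod was also higher in spretus testis (0.24 ± 0.07 SE, adjusted p = 0.0217) and in cas liver/kidney against dom and mus (0.56 ± 0.13 SE).

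In testis the 10 germ-cell probes averaged 0.20, -0.41 and -0.17 in spretus animals 1, 2 and 3. The lowest, median and highest musculus arrays were at -0.29, 0.00 and 0.36. Prm1, Ldhc and Odf1, 3 of the 10, were lower in spretus, beside 9.42% of all probes that passed. Animal 2, lowest for Npas2, was also lowest for these markers. In such bulk samples fewer cells of a type and less RNA per cell cannot be told apart, and the part of these markers in the differences of Bhlhe40, Nr1d2, Dbp and Npas2 was not tested.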

How the data were processed

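The deposited values are log ratios that the authors processed, 1 file per array, taken here as log2 values; the sources used here state neither base nor direction, and name no background correction or normalisation. The range of -5.71 to 5.77 is too wide for log10. Array medians lay between -0.04 and 0.06. Array titles gave the groups and the number of each animal, and 1 brain array titled mus has a channel label that says domesticus and stayed in mus. Neighbouring spots repeat each probe in 22320 pairs, which were averaged, 1488 single spots were dropped, and symbols came from the platform's probe table. Arrays were centred on their median.

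Contrasts were fitted in each tissue over all 5 groups with limma 3.58.1 in R 4.3.3 (data.table, version 1.17.8), for probes with at least 2 values in every group, with Benjamini-Hochberg adjustment over all of them and a two-sided threshold of 0.05. Other steps used Python 3.11.15, numpy 2.4.6, pandas 2.3.3, scipy 1.17.1 and matplotlib 3.10.9. The fit was tested on simulated data. Every member was described whatever its value. The members, the further gene lists and the marker lists were chosen with earlier results of these data known. Nothing beyond the titles says that animals were independent samples, so p-values measure the spread between these arrays, whose number limits the precision. Alternatives were quantile normalization, array weights, other filters, either spot alone, array set, replicate number as a block, and each array left out. Probe sequences were not used here.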

Additional observations from a re-analysis of the deposited data

Results flagged for a closer look

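Within a group of 4 to 10 arrays, 10 of 81 groups had 1 array farther from the rest than Dixon's 95% limit. For normally distributed values chance gives about 1 in 20. The share over all probes was not computed, so the count is not read as particular to these genes. In brain, Clock was 0.44 in ssp animal 4, against -0.22 to -0.08 in the others. Brain Per2 was 0.16 in dom animal 1 (others -0.10 to -0.03) and -0.38 in ssp animal 2 (others -0.07 to 0.02). Brain Per3 was 0.20 in mus animal 5 (others -0.11 to -0.04), from spots of -0.08 and 0.48, and -0.36 in ssp animal 4 (others -0.15 to -0.03). Brain Dbp was -0.24 in ssp animal 5 (others -0.02 to 0.06). In liver/kidney, Nr1d2 was -0.28 in dom animal 1 (others -0.01 to 0.13), and that array is the lowest of the 21 musculus arrays. In testis, Npas2 was 0.14 in dom animal 13 (others -0.20 to -0.09), Per2 was 0.29 in ssp animal 2 (others -0.10 to 0.02) and Per3 was 0.14 in mus animal 7 (others 0.00 to 0.03), from spots of 0.35 and -0.08. Ssp animal 2 was at one end for Per2 in brain and at the other end in testis.

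The spretus difference was unlike between liver/kidney and testis for Bhlhe40, by 0.86 (adjusted p = 0.00152), and for Npas2, by 0.40 (adjusted p = 0.0220), in the model over all tissues. That model had no term for the array set, which in liver/kidney cannot be told apart from spretus against dom, mus and ssp. What lies behind these values was not tested.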

How the results depend on the processing

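No called difference of a member changed sign under the alternatives that were run. Small differences that were not called did so within an array set, such as testis Dbp in mus against dom (-0.01 over all arrays, 0.11 within set 1). Of the single genes, 494 values kept their side of the threshold, 24 lost it and 27 gained it. Spot error limits Cry1, Per3, Arntl and Per2, missing values limit Per1, and 3 spretus arrays per tissue limit the main contrast. The spots alone, the fits within an array set and the removal of group-by-set means were chosen after seeing the data. The array set and replicate block could not be fitted for the pool contrasts, and averaging several probes of a gene did not apply.

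Counts of called members in spretus against musculus, 1 in brain, 3 in liver/kidney, with 1 in testis, ranged from 0 to 2, 1 to 3 and 0 to 2 with 1 array left out. Array weights gave 3 in brain (Bhlhe40, Nr1d2 and Dbp) and 2 in testis (Npas2 and Per2), quantile normalization 0 in testis, the first spot 0 in testis, the second spot 0 in brain and testis, and array set 2 alone 0 in each tissue. The array set as a random block gave 1 in liver/kidney, and as a term 0 in testis. Over all probes the count in brain was 814 (3187 with array weights, 421 from the second spot, 61 within set 2). In liver/kidney it was 1547 (719 with array weights, 113 with the random block, 0 within set 2). In testis it was 1956 (2330 with array weights, 486 under quantile normalization, 1086 with the set term, 512 within set 2). The first and the second spot alone called 1483 and 1499 probes in testis. Without dom animal 1, mus animal 7, ssp animal 1 or ssp animal 2, testis Nr1d2 passed (adjusted p 0.0290 to 0.0480), and without cas animal 3 brain Dbp passed (-0.36, adjusted p = 0.0300). The cause of these changes was not tested.

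For mus against dom, with 0 members called, quantile normalization and array weights each gave 1 in brain (Dbp) and 1 in liver/kidney (Per3), and the second spot gave 1 in liver/kidney. Over all probes the brain count was 46, with 322 under quantile normalization and 383 with array weights. The liver/kidney count was 122, with 207 and 319 in the same order, and the second spot called 92 of 20526 probes there. For ssp in liver/kidney set 1 alone gave 1, beside 343 of 21499 probes. Leaving out arrays kept the mus, cas and ssp counts at 0. Against the pool, 0 in brain, 1 in liver/kidney, with 1 in testis ranged from 0 to 1, 1 to 2 and 1 to 1 with an array left out. The changed runs were without cas animal 1 or ssp animal 6 in brain, and without cas animal 3, dom animal 5 or ssp animal 5 in liver/kidney, where Bhlhe40 was gained. Array weights gave 1, 2 and 2, the first spot 1 in brain and 2 in liver/kidney, and quantile normalization 2 in liver/kidney, with 2 in testis. Beside these, array weights called 1699 of 20621 probes in brain, 7227 of 20652 in liver/kidney and 3060 of 20754 for testis. Quantile normalization called 6866 in liver/kidney and 3613 in testis, and the first spot 1175 of 20251 in brain and 5102 of 20304 in liver/kidney.

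Pairs of members that passed, 0 in each tissue, were 3 in brain, 1 in liver/kidney, with 1 in testis with group means left in. They were 1 in brain and 1 in testis without the 2 farthest arrays, 1, 1 and 3 without spretus, and 1 in liver/kidney within set 1. The single call between tissues, Nr1d2, became 0 by rank correlation, under quantile normalization, without the 2 farthest animals and without spretus.

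Replicate numbers are shared by groups. Over 27 same-number pairs per tissue the median r of deviations was -0.01 in brain, -0.00077 in liver/kidney, with -0.04 in testis. Over pairs of other numbers it was -0.00091, 0.0016 and -0.0038. Above 0.1 were 1, 2 and 8 same-number pairs, with a highest r of 0.327 in testis. Pairs of other numbers above 0.1 were not counted, so the check cannot decide whether some numbers were paired. With the replicate block the called members were 0 in brain, 1 in liver/kidney, with 0 in testis (323, 647 and 1084 of all probes). Bhlhe40 in brain was at 0.43 (adjusted p = 0.0804), Nr1d2 and Dbp in liver/kidney at -0.52 (adjusted p = 0.0510) and -0.74 (adjusted p = 0.0560), and Npas2 in testis at -0.24 (adjusted p = 0.0806).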
